A study of Homo sapiens with 18 samples.

Results

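RKO cells transfected with a nontargeting siRNA are described here first by the level of each transcript and then by how these levels differed between the control libraries and from the depleted ones. The members are the 6 libraries labelled siCtrl#1 or siCtrl#2, of 18 libraries in the series. RKO is an established human colorectal carcinoma line. Every library came from these cells 72 h after transfection with 30 nM of 1 siRNA, and total RNA was taken. The 3 siCtrl#1 and 3 siCtrl#2 libraries carried no on-target siRNA, whereas the other 12 were depleted of Tsg101 (siTsg101#1, siTsg101#2) or Vps28 (siVps28#1, siVps28#2), core subunits of the ESCRT-I complex. The labels number the replicates by batch, and each of the 3 batches held 1 library of each siRNA. The control cells were transfected cells, not untreated ones, so that the levels include whatever the reagent and the nontargeting siRNAs do.

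The colonic epithelium is renewed from stem cells that divide under Wnt signalling and give rise to absorptive colonocytes, mucus-secreting goblet cells and hormone-secreting enteroendocrine cells. Transcription factors such as CDX2 and HNF4A maintain the intestinal programme, and epithelial cells are joined by E-cadherin, claudins and keratin filaments. Colorectal carcinomas keep these features to different degrees. RKO is known as a poorly differentiated, microsatellite-unstable line with an activating BRAF mutation.

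Levels were expressed as CPM, the reads of a gene after scaling the gene reads of its library to a sum of 1000000. The panel reads each transcript through 1 short amplicon, so that CPM was not divided by transcript length, and an order of genes by CPM also holds differences in amplification between amplicons. The 6 control libraries held 3553207 to 6352155 reads on genes (median 4481749.5), 28146877 in all. A gene without a read in any of them could still reach 3 reads, or 0.107 CPM, within counting error, and in the smallest library alone 0.844 CPM. These limits cover counting error only, because amplified reads without molecular identifiers are not independent molecules. TSG101, the ESCRT-I subunit that binds ubiquitylated cargo, lay between 74.7 and 145 CPM in the control libraries and had medians of 3.70 and 2.73 CPM with siTsg101#1 and siTsg101#2. VPS28, its partner subunit, lay between 64.4 and 106 CPM in the control libraries and between 3.33 and 7.15 CPM in those with an siVps28. For both genes the libraries with the matching siRNA lay below all 6 controls.

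The siCtrl#2 library of batch 1 stood apart from the siCtrl#2 libraries of batches 2 and 3, which in turn stood apart from the other 4 control libraries. Over the 10009 genes that reached 1 CPM in all 6 libraries, the first principal component (38.1% of the variance of log2(CPM + 1)) separated the siCtrl#2 libraries of batches 2 and 3 from the other 4, and the second (24.6%) separated siCtrl#2 of batch 1 from the rest. Counts of genes and medians below are set beside their values without siCtrl#2 of batch 1 wherever these differ by more than 1.5-fold.

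The highest transcripts were those of translation, the cytoskeleton and metabolism. RMRP, the RNA component of a ribonuclease that processes ribosomal RNA (NR_003051, GRCh37 chr9:35657751-35658014), was the highest, at 18240 to 26285 CPM (median 21121). RPPH1, the RNA of ribonuclease P, lay between 6675 and 14597 CPM (median 10056). These were the 2 noncoding RNAs among the 25 highest genes. The highest messenger RNA was ACTG1, cytoplasmic gamma-actin (chr17:79476439-79490873), with a median of 15043 CPM (11687 to 19203). Next were EEF1A1 and EEF2, the elongation factors that bring aminoacyl-tRNA to the ribosome and move it along the message, with medians of 14824 and 13380 CPM. Of the 25 highest genes, 10 encode ribosomal proteins, led by RPL4 with a median of 10009 CPM.

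Several of the highest genes are not part of the translation machinery. MT2A, a metal-binding metallothionein, had a median of 13186 CPM and ranged from 7271 CPM in siCtrl#2 of batch 3 to 18881 CPM in siCtrl#1 of batch 2. HMGA1, an architectural chromatin protein of embryonic and tumour cells, had a median of 7013 CPM (5676 to 8661). STC1, a secreted glycoprotein hormone, lay between 3476 and 4683 CPM. GAPDH and ENO1 of glycolysis had medians of 7009 and 3759 CPM, and FTL, the light chain of ferritin, had 4271 CPM. The 10 highest genes took between 10.2% and 13.2% of the reads of a library (median 12.0%), and the 100 highest between 30.3% and 35.2%. Among the 100 highest, 44 encode ribosomal proteins. The others of the 25 were ACTB, RPS4X, RPLP0, EEF1G, RPL3, RPL11, RPS2, PABPC1, RACK1, RPS19, RPLP2, RPS16 and RPS15. Some of these transcripts share sequence with transcripts of other genes: 100% of the longest EEF1G transcript, 77% of that of RPS2, 33.1% of that of EEF1A1, 35.3% of that of GAPDH and 41.9% of that of RPL4 lay in stretches of 50 bases found in such transcripts, so that reads may have been split or lost between copies.

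**Figure D1:**
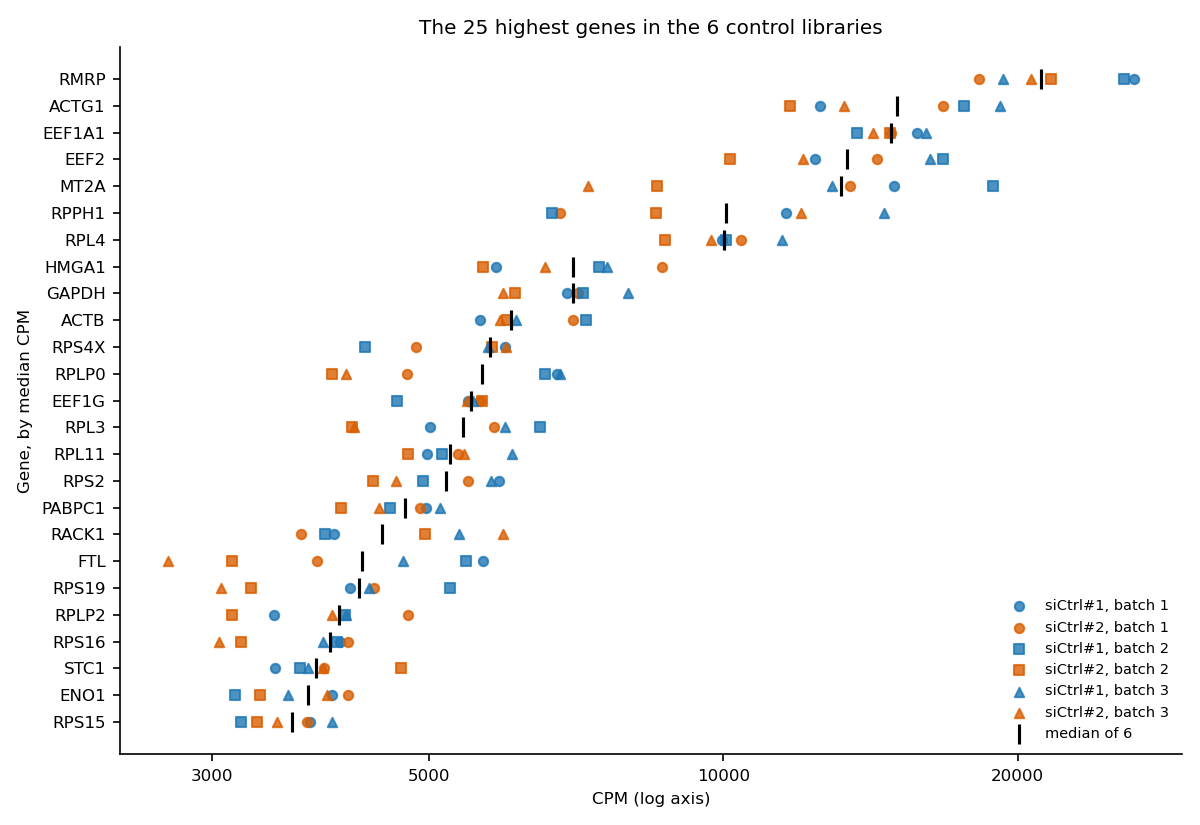
Level of the 25 genes with the highest median in the control libraries, in CPM on a log axis, with 1 symbol per library (colour, siRNA; shape, batch) and a bar at the median of 6. RMRP led with a median of 21121 CPM and RPS15 closed the list at 3620 CPM, and for MT2A and FTL the siCtrl#2 libraries of batches 2 and 3 were the lowest.

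Of the 20802 genes of the panel, 10009 (48.1%) reached 1 CPM in all 6 control libraries, called detected below, and 6956 (33.4%) had no read in any of them. The remaining 3837 had reads below this level or in some of the libraries only. Every count of detected genes in a list below stands beside the 48.1% of all panel genes. Of the 10213 genes tested below, which had passed a count filter, 94.8% were detected. Of the 10009 genes, 2134 had a median under 10 CPM, 6056 had 10 to 100 CPM, 1710 had 100 to 1000 CPM and 109 had 1000 CPM or more. Protein-coding genes were detected more often than noncoding ones, 52.1% of 18583 against 14.8% of 2219. The genes of olfactory receptors, which are read in sensory neurons, gave the level of background. None of 363 protein-coding ones reached a median of 1 CPM, their highest median was 0.427 CPM, and 137 had no read. With pseudogenes included, 1 of 376 olfactory receptor symbols was detected, the pseudogene OR2A20P. Of the 6956 genes without a read, 5385 also had none in the 12 depleted libraries.

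A level of 0 did not always mean that a gene is off. Among 143 genes of the cytosolic ribosome, the proteasome and the respiratory chain, which every cell needs, 138 reached 1 CPM in all 6 libraries, but RPL13A, a ribosomal protein, had no read, and RPSA and RPL21 had medians of 0 CPM. PKM, the pyruvate kinase of most tumour lines, had a median of 3.57 CPM beside 7009 CPM for GAPDH, and MAP2K2, a kinase between RAF and ERK, had no read in any of the 6. For single genes at 0, a silent gene and an amplicon that was not counted cannot be told apart here.

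Markers of epithelium were present in part. Of 24 epithelial genes, 10 reached 1 CPM in all 6 control libraries (41.7%, beside 48.1% of all panel genes). The highest were SPINT1, an inhibitor of epithelial surface proteases, with a median of 169 CPM (161 to 188), and the keratin pair of simple epithelia, KRT18 with 76.3 CPM (65.9 to 80.7) and KRT8 with 20.6 CPM (16.0 to 23.4). ESRP2, an epithelial splicing regulator, had 33.4 CPM and the tight-junction gene OCLN 29.9 CPM, whereas EPCAM, an adhesion molecule of nearly all carcinomas, reached a median of only 10.1 CPM (4.25 to 14.7). CDH1, which encodes E-cadherin, had no read in any of the 6 libraries, nor did KRT7, KRT19, GRHL2 and ST14. ESRP1, the paralogue of ESRP2, had a median of 0 CPM. In bulk RNA, fewer cells of a type and less RNA per cell cannot be told apart.

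Intestinal transcription factors were detected at about the share of all panel genes. Of 19 genes, 10 reached 1 CPM in all 6 libraries (52.6%, beside 48.1%) and 5 had no read (26.3%, beside 33.4%). CDX2, the intestinal homeobox factor, had a median of 30.5 CPM (23.6 to 36.9), and GATA4 29.9 CPM (26.6 to 34.6). The lowest of the 10 were KLF5 at 4.44 CPM, PDX1 at 3.92 CPM and GATA6 at 3.49 CPM. HNF4A, CDX1, ATOH1 and FOXA2 had no read. The related nuclear receptor HNF4G was at 7.60 CPM.

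Genes of differentiated intestinal cells were close to absent. Of 24 genes of absorptive colonocytes, CA2, a carbonic anhydrase, was the only one at 1 CPM in all 6 libraries, with a median of 6.94 CPM (4.50 to 10.4). No read was found for 20 of them, among them VIL1 and KRT20 of the brush border and cytoskeleton, FABP1, which binds fatty acids, the chloride exchanger SLC26A3, and the adhesion molecules CEACAM5, CDH17 and GPA33. The whole list summed to 5.07 to 10.9 CPM, most of it from CA2. No goblet cell gene of 16 reached 1 CPM in all libraries. MUC2, the main secreted mucin of the colon, had a median of 0 CPM, and the highest of this list was REP15 with 1.66 CPM. Of 14 enteroendocrine genes only ENO2, a glycolytic enzyme that many tumour lines express, was detected, at 153 to 199 CPM, while CHGB, NEUROD1 and NEUROG3 had no read and CHGA had a median of 0 CPM. Among 12 genes of Paneth and tuft cells, 11 had no read.

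Of 15 genes of intestinal stem cells, 8 reached 1 CPM in all 6 libraries (53.3%, beside 48.1% of all panel genes). MSI1, an RNA-binding protein of progenitor cells, had a median of 129 CPM (94.0 to 148), BMI1, a Polycomb subunit, 65.8 CPM and EPHB2, a receptor of crypt cells, 30.2 CPM. LGR5, the receptor that marks crypt base stem cells, had no read, nor did OLFM4, PROM1, SMOC2 and RNF43. AXIN2, a feedback target of Wnt signalling, was at 1.80 CPM (0.870 to 2.52).

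Mesenchymal markers were also split. ZEB1, a repressor of epithelial genes, was the highest of 27 mesenchymal and fibroblast genes, with a median of 284 CPM (233 to 327), followed by the receptor kinase AXL with 124 CPM (101 to 165). VIM, the intermediate filament of mesenchymal cells, had 33.9 CPM (16.5 to 52.1) and SNAI1 14.6 CPM. FN1, CDH2, TWIST1, SNAI2, ZEB2 and the collagens COL1A2 and COL3A1 had no read. Of the 27 genes, 8 were detected (29.6%, beside 48.1% of all panel genes) and 15 had no read (55.6%, beside 33.4%). The collagen gene COL6A1 was read at a low level, with 6.73 CPM.

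Markers of cells that a culture of RKO should lack were at or near 0. No gene of the endothelial (12), hepatocyte (14), erythroid (9) or pluripotency (10) lists reached 1 CPM in all 6 libraries. The remaining lists had exceptions. Of 20 leukocyte genes, CD68, a lysosomal membrane protein, had a median of 738 CPM (471 to 986), and LYN, a Src family kinase, ITGAX and CORO1A had 48.2, 9.31 and 9.16 CPM, whereas PTPRC, the pan-leukocyte marker, CD3E, CD53 and SPI1 had no read. Of the CD68 transcript, 95.1% was shared with an overlapping readthrough transcript. TUBB3 at 22.2 CPM and MBP at 4.81 CPM were the neural genes detected of 16, and TTN at 5.83 CPM and TNNI3 at 3.73 CPM the muscle genes of 14. PRAME, an antigen of germ cells and tumours, was the only detected gene of 22 in the cancer-testis list, with a median of 88.8 CPM (62.5 to 94.3), while MAGEA3, MAGEA4, SSX1 and 17 others had no read.

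**Figure D2:**
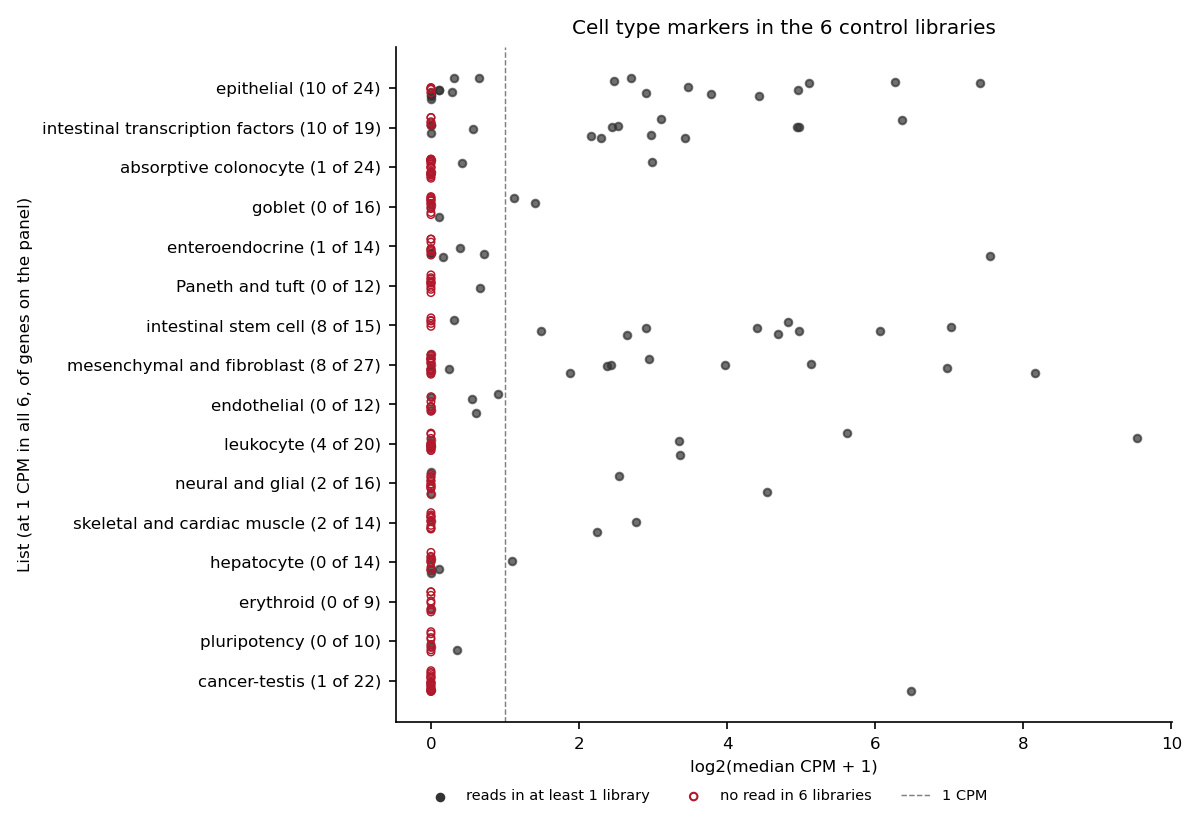
Level of cell type markers in the control libraries, as log2 of the median CPM of 6 libraries plus 1, with 1 point per gene and 1 row per list. Open points are genes without a read in any of the 6, the dashed line marks 1 CPM, and the row labels give how many genes reached it in all 6, from 10 of 24 epithelial genes to none of 16 goblet cell genes.

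Of 13 mismatch repair genes, 11 reached 1 CPM in all 6 libraries. MSH6, which recognizes mismatches, had a median of 46.5 CPM (40.8 to 65.5). MSH3, which recognizes larger loops, had a median of 0.915 CPM (0.472 to 1.69). PMS2, an endonuclease of the pathway, was at 4.72 CPM and MLH3 at 17.7 CPM. PCNA, the sliding clamp of replication, was the highest of the list with 144 CPM.

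Genes often methylated in colorectal cancer were mostly unread. Of 39 genes, 25 (64.1%) had no read, beside 33.4% of all panel genes, and 6 reached 1 CPM in all 6 libraries. Those without a read included the Wnt antagonists SFRP1, SFRP2, SFRP4, SFRP5, WIF1 and DKK3, the tumour suppressors CDKN2A, RUNX3 and DCC, the chromatin remodeller HLTF and the protease inhibitor TIMP3. SEPTIN9 was the highest with 172 CPM (150 to 208), followed by VIM and GATA4. MGMT, which repairs alkylated guanine, was at 4.29 CPM and ranged from 2.20 to 14.7 CPM. DNA methylation itself was not measured.

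The enzymes that maintain DNA methylation were read at higher levels than those that set it anew. UHRF1, which recruits the maintenance methyltransferase to replicated DNA, had a median of 223 CPM (152 to 309) and DNMT1, that methyltransferase, 113 CPM (78.4 to 136). DNMT3A was at 2.23 CPM, DNMT3B at 0.223 CPM, and DNMT3L had no read. Of the enzymes that oxidize methylcytosine, TET2 had 14.9 CPM and TET1 a median of 0 CPM.

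Of 40 Wnt signalling genes, 30 were detected (75.0%, beside 48.1% of all panel genes), with a list median of 19.7 CPM. All panel genes had a median of 1.23 CPM, and the tested genes, which passed a count filter, 29.1 CPM. MYC, a growth-promoting transcription factor, had a median of 854 CPM (679 to 1403) and CTNNB1, which encodes beta-catenin, 576 CPM (476 to 701). CCND1, cyclin D1, had 251 CPM. The receptors FZD5 and LRP6 had 34.6 and 48.7 CPM, and the destruction complex genes APC and AXIN1 26.9 and 27.3 CPM. Of the ligands on the list, WNT11 had 2.90 CPM and WNT3 2.84 CPM, WNT5A and WNT3A had no read, and WNT5B had a median of 0 CPM.

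Of 48 genes of receptor tyrosine kinases and the RAS-ERK pathway, 35 reached 1 CPM in all 6 libraries. The adaptor SHC1 was the highest with 1031 CPM (863 to 1198). Among transcripts induced by ERK, PHLDA1 had 848 CPM, FOSL1 809 CPM (650 to 1350), EGR1 357 CPM, DUSP5 311 CPM and DUSP6, a phosphatase of ERK, 171 CPM (87.8 to 241). The kinases themselves were lower: BRAF had 79.2 CPM (55.0 to 102) and MAP2K1 99.3 CPM, and among the RAS genes NRAS had 72.3 CPM and HRAS 8.43 CPM. EPHA2 was the highest receptor at 405 CPM, above MET at 55.2 CPM, EGFR at 48.4 CPM and ERBB2 at 35.2 CPM, whereas KIT and ERBB4 had no read. The EGFR ligand gene EREG had no read, AREG had a median of 0.313 CPM and HBEGF was at 17.5 CPM.

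Of 35 PI3K and mTORC1 genes, 31 reached 1 CPM in all 6 libraries (88.6%, beside 48.1% of all panel genes and 94.8% of the tested genes). EIF4EBP1, an inhibitor of translation that mTORC1 phosphorylates, had 213 CPM (201 to 234), and the summed level of the list varied by 1.09-fold between the lowest and the highest library.

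Genes of the p53 pathway were detected in 25 of 26 cases. The target gene CDKN1A, the cell cycle inhibitor p21, was the highest with 608 CPM (433 to 889), followed by the death receptor TNFRSF10B with 502 CPM and SESN2 with 184 CPM. MDM2, a ubiquitin ligase, had 126 CPM (61.8 to 138). The proapoptotic genes BAX, PMAIP1 and BBC3 had 144, 34.9 and 12.4 CPM. Among the lowest were ATM at 4.32 CPM and PLK3 at 3.80 CPM.

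Of 23 genes of TGF-beta signalling, 19 were detected. Among them, though not the highest, the ligand gene TGFB1 had a median of 167 CPM (131 to 206). The receptor gene TGFBR2, which is often mutated in microsatellite-unstable tumours, was at 2.99 CPM (2.06 to 3.97), below TGFBR1 at 25.9 CPM, and ID1, ID3 and ID2, targets of the BMP branch, were at 14.9, 1.45 and 0.358 CPM. TGFBI had no read.

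Genes of the dividing cell were read almost without exception. Of 41 cell cycle genes, 40 reached 1 CPM in all 6 libraries, and the exception was CDKN2A. The helicase subunits MCM7 and MCM4 had 375 and 314 CPM, the nucleotide synthesis genes RRM2 and TYMS 282 and 232 CPM, CDK4 280 CPM, and MKI67 84.1 CPM (58.4 to 155). CCND2, cyclin D2, had a median of 266 CPM (198 to 371), a range that overlapped that of CCND1 (172 to 290). MCM2 at 16.8 CPM and E2F2 at 1.87 CPM were the lowest of those detected.

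Genes of central metabolism and protein turnover had list medians above that of all tested genes. The 75 ribosomal protein genes of the list took 12.9% of all reads and had a median of 1336 CPM. RPS4X, counted above among the highest ribosomal protein genes with a median of 5772 CPM, is not on this list. The median was 29.1 CPM for the 10213 genes tested below, which passed a count filter, and 1.23 CPM for all panel genes. All 25 proteasome genes were detected, with a median of 164 CPM, from PSMD4 at 5.13 CPM to PSMB7 at 710 CPM. All 43 genes of the respiratory chain were detected, with a median of 145 CPM and COX6A1 the highest at 709 CPM. Glycolytic genes summed to 1.56% of reads, led by GAPDH, ENO1 and GPI. LDHB was at 491 CPM and LDHA at 399 CPM, and their ranges overlapped. The glucose transporter gene SLC2A1 had 374 CPM (195 to 424).

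Of 26 genes of cholesterol synthesis and uptake, 25 were detected, among them CYP51A1 with 218 CPM (172 to 310), HMGCS1 with 29.8 CPM and HSD17B7 with 9.52 CPM. LSS had a median of 0.253 CPM. Of 35 lysosomal genes, 34 were detected. CD63 and PSAP, a membrane protein and the precursor of sphingolipid activators, had 1018 and 956 CPM, TPP1 had 477 CPM and CTSD 301 CPM, and MCOLN1, the lysosomal calcium channel, had 22.7 CPM (17.4 to 27.2). Of 33 ESCRT genes, 32 were detected, with a list median of 55.9 CPM and a summed level that varied by 1.12-fold between libraries. VPS4A, an ATPase that recycles the complex, was the highest at 224 CPM, and VPS37A at 8.02 CPM was the lowest of those detected.

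**Figure D3:**
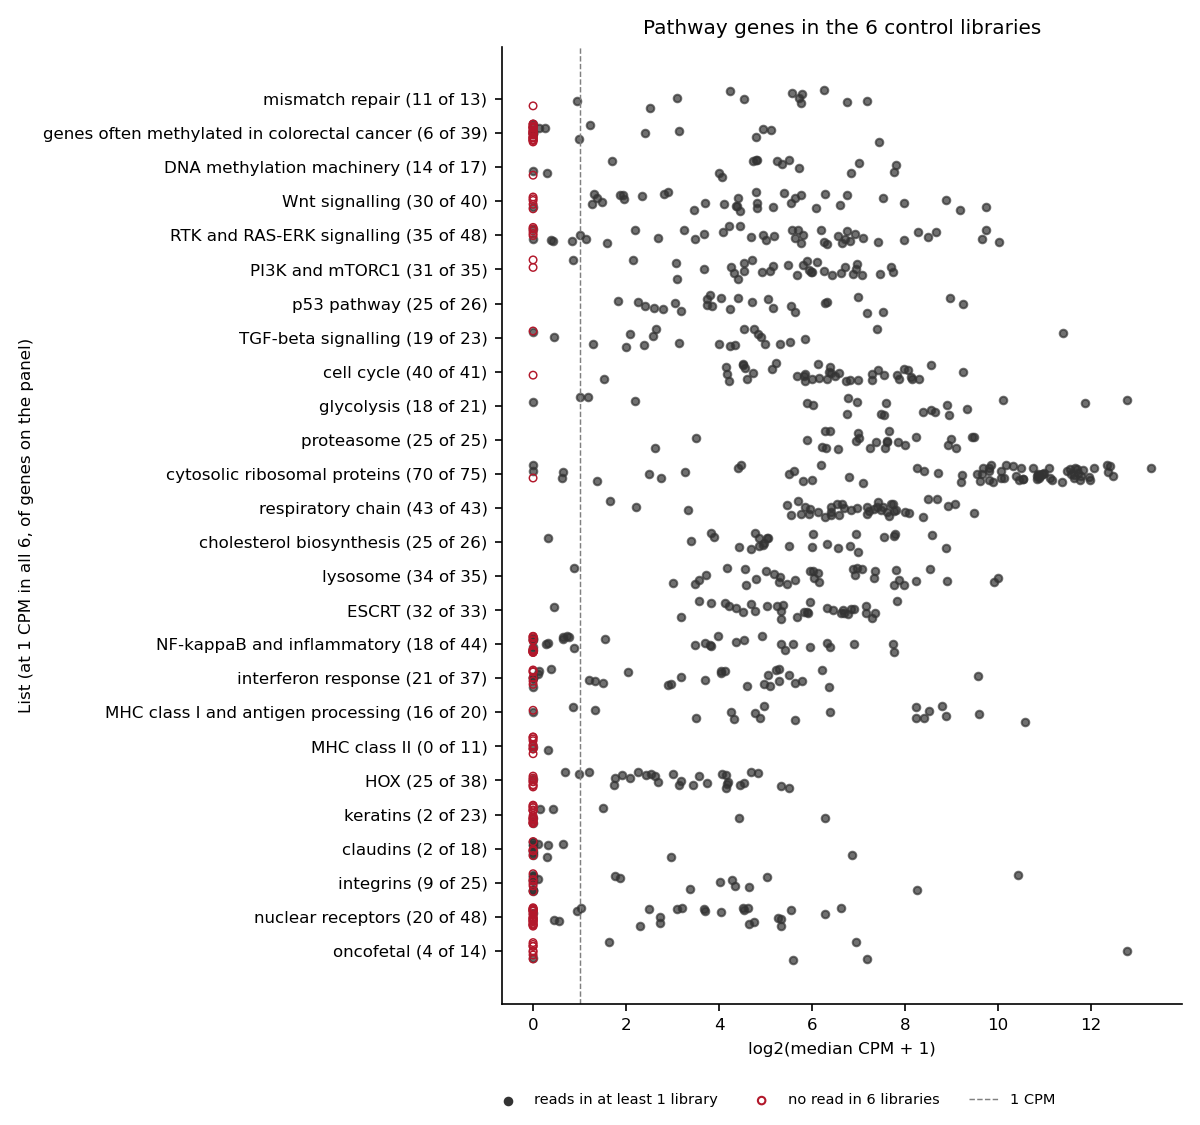
Level of pathway genes in the control libraries, as log2 of the median CPM of 6 libraries plus 1, with 1 point per gene and 1 row per list. Ribosomal protein genes lay furthest to the right with a median of 1336 CPM, and all 11 genes of MHC class II lay at or near 0.

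Of 44 NF-kappaB and inflammatory genes, 18 were detected (40.9%, beside 48.1% of all panel genes) and 14 had no read (31.8%, beside 33.4%). The subunits RELA, NFKB2 and NFKB1 had 119, 79.3 and 47.2 CPM and the inhibitor NFKBIA 39.0 CPM (26.1 to 61.4). LIF, a cytokine, was the highest of the list with 215 CPM (177 to 236). Other cytokine genes were not at this level: CXCL8 had a median of 0.845 CPM (0.563 to 1.14), CXCL1 0.210 CPM, and TNF, IL6, IL1A, IL1B and CCL2 had no read. Of 37 genes of the interferon response, 21 were detected (56.8%, beside 48.1%). BST2, which tethers viruses to the cell surface, was the highest with 753 CPM (605 to 921), and ISG15 had 54.3 CPM, whereas OAS2, OASL, IFI44L, IFNB1 and STING1 had no read. CGAS, the sensor of cytosolic DNA, was at 38.1 CPM, in the same libraries in which its adaptor STING1 was not read.

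MHC class I genes were read and class II genes were not. CALR, a chaperone of the endoplasmic reticulum, had 1518 CPM, B2M 773 CPM (691 to 916), HLA-C 441 CPM and HLA-E 302 CPM. HLA-B had no read, in a gene of which 42.4% of the longest transcript is shared with other transcripts. The transporters TAP1 and TAP2 had 48.3 and 82.5 CPM. CD274, which encodes the checkpoint ligand PD-L1, had 301 CPM (198 to 422). None of 11 class II genes reached 1 CPM in all 6 libraries, and CD74, HLA-DRA and HLA-DRB1 had no read.

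Gene families of position, adhesion and hormone response were each read in part. Of 38 HOX genes, 25 were detected (65.8%, beside 48.1% of all panel genes). They were led by HOXB9 with 44.3 CPM (27.0 to 63.2), HOXA5 with 39.1 CPM and HOXC8 with 27.7 CPM. Of the D cluster, HOXD9 was the highest with 7.85 CPM, and HOXD10, HOXD11, HOXD12 and HOXD13 had no read. HOXB13, a marker of the distal colon and prostate, was at 7.03 CPM (5.20 to 8.24). Of 23 keratins only KRT8 and KRT18 were detected in all 6 libraries, and of 18 claudins only CLDN12 with 115 CPM and CLDN15 with 6.81 CPM. ITGB1, the common beta subunit of integrins, had 1366 CPM (1180 to 2214) and ITGA5, with which it forms the fibronectin receptor, 306 CPM, whereas ITGB4, ITGB6 and ITGB8 were at a median of 0 CPM.

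Of 48 nuclear receptor genes, 20 were detected (41.7%, beside 48.1% of all panel genes) and 23 had no read (47.9%, beside 33.4%). RXRA, the common partner of many receptors, had 97.9 CPM (74.5 to 126) and ESRRA 76.7 CPM. VDR, the vitamin D receptor, was at 11.7 CPM, and ESR1, PGR and NR3C1 had no read. Of 14 oncofetal genes, HMGA1, HMGA2 with 144 CPM (104 to 218), IGF2BP2 with 122 CPM and IGF2BP3 with 47.1 CPM were detected, while IGF2BP1, IGF2, LIN28B and AFP had no read.

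Promoters of detected and unread genes differed in base composition. Windows of 300 bases around the transcript start, from RefSeq on GRCh38.p14, were matched for 14608 of 18583 protein-coding genes. Each gene had 1 window, which was not matched to the transcript that the panel reads. The ratio of observed to expected CpG dinucleotides had a median of 0.861 in the 8006 genes detected in all 6 libraries and of 0.397 in the 4207 without a read. A ratio of at least 0.6 was found in 88.5% of the former, 37.5% of the latter and 67.6% of all windows. From genes with a median under 10 CPM to those with at least 1000 CPM, the median ratio went from 0.827 to 0.891. The motif TATAAA, searched on both strands, was in 4.88% of the windows of detected genes, 15.3% of those without a read and 9.30% of all. It was in 16.1% of the 93 windows of genes at 1000 CPM or more. The letters CCGGAAG, part of the motif of ETS factors, were in 22.0% of the windows of detected genes and 4.49% of those without a read (14.7% of all), and GGGCGG, the core of the SP1 motif, in 73.2% and 39.6% (59.9% of all). CCAAT was in 38.0% and 34.6% (36.5% of all). These shares are descriptions of the letters in the windows.

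Unread genes were of both kinds. Of 17 unread genes with a window in the list of genes often methylated in colorectal cancer, 12 had a ratio of at least 0.6, as did 1 of 16 unread genes of absorptive colonocytes. The list medians of the ratio were 0.728 and 0.190. The 250 bases before the start are shown for 4 genes to make the contrast visible, from 5′ to 3′ on the strand of the gene, with CpG in capitals. EEF1A1, the highest messenger RNA after ACTG1, has 20 CpG (chr6:73521033-73521282, minus strand). CDX2, read at 30.5 CPM, has 10 (chr13:27969316-27969565, minus strand). KRT8, read at 20.6 CPM, has 1 (chr12:52926470-52926719, minus strand), and KRT20, without a read, has 2 (chr17:40885243-40885492, minus strand).
EEF1A1: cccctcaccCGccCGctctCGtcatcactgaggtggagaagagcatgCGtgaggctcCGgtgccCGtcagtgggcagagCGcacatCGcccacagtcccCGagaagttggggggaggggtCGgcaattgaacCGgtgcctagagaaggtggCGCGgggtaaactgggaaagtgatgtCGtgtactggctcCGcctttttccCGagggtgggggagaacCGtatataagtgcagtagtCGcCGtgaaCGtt
CDX2: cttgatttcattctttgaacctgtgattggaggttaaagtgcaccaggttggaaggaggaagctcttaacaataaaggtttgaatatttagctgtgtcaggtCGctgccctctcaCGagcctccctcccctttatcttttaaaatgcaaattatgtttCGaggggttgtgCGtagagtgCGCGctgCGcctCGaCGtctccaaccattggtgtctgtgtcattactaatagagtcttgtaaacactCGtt
KRT8: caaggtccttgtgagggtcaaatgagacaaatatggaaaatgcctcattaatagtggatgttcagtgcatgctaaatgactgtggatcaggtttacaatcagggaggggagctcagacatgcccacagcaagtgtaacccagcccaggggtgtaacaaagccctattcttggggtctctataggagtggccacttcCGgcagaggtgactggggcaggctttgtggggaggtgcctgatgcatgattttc
KRT20: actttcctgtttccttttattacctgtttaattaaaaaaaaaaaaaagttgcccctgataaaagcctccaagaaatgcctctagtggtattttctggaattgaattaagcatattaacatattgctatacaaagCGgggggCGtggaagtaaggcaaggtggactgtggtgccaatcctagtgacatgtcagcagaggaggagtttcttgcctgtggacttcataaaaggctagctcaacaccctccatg
In these windows the first pair holds many CpG and is read, whereas the keratins hold few and KRT8 is read while KRT20 is not. A window may belong to another start of the gene than the one in use, so that single genes are examples only. Over all windows, 88.5% of detected and 37.5% of unread genes had a ratio of at least 0.6. CpG content alone did not separate the 2 kinds.

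The spread between libraries was small beside the range of levels. Over the 10009 detected genes the standard deviation of log2(CPM + 1) across the 6 libraries had a median of 0.28, and of 0.26 without siCtrl#2 of batch 1. It was 0.35 for genes with a median under 10 CPM, 0.27 from 10 to 100 CPM, 0.23 from 100 to 1000 CPM and 0.18 above. The steadiest genes at 100 CPM or more were DRG1, a GTPase of translation (135 to 140 CPM), RPS12 (3104 to 3238 CPM), CSNK2B (265 to 281 CPM), IARS2 (121 to 129 CPM) and C19orf53 (155 to 167 CPM).

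Libraries of the same batch were not in general nearer to each other than other pairs. The median absolute log2 difference between the 2 libraries of a batch was 0.26 to 0.34 in the 3 batches, 0.20 to 0.37 between 2 libraries of the same siRNA (6 pairs), and 0.28 to 0.35 between libraries that shared neither (6 pairs). The 2 libraries of a batch always differed in siRNA. At 0.26, the pair of batch 3 lay below all 6 pairs that shared neither. The pairs of batches 1 and 2, at 0.32 and 0.34, lay within their range. Both same-siRNA values above 0.30 involved siCtrl#2 of batch 1. Pearson's r of log2(CPM + 1) across these genes, which are not independent replicates, was 0.958 to 0.983 over the 15 pairs.

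**Figure D4:**
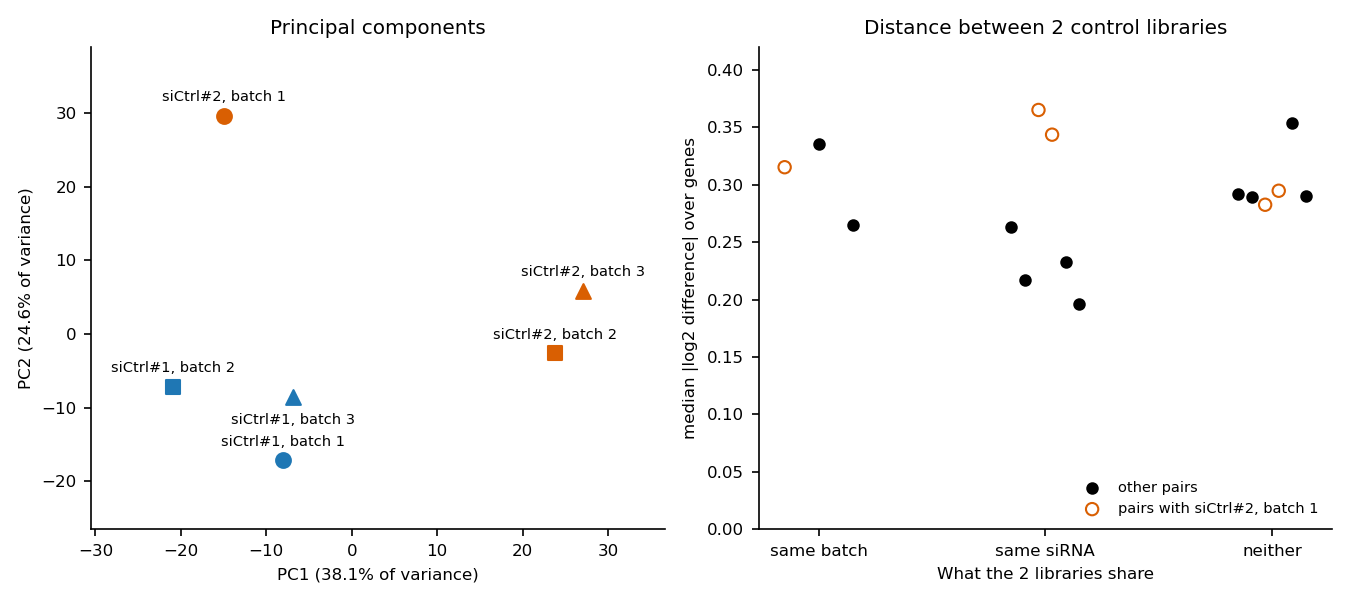
Left, first and second principal component of the 6 control libraries over 10009 genes; right, median absolute log2 difference over these genes for each of 15 pairs, by what the pair shares. The siCtrl#2 library of batch 1 lay apart on the second component, and the smallest distances (0.20 to 0.26) were between libraries of the same siRNA without it.

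The genes were tested for a difference between the 3 batches of the control libraries, with the siRNA as a second term. No gene of 10213 passed an adjusted p of 0.05 in edgeR's quasi-likelihood test (0% called) and none in DESeq2. This fit had few residual degrees of freedom, so that the absence of calls does not show that the batches were alike. At an unadjusted p under 0.05 there were 555 genes in edgeR (5.43%) and 240 in DESeq2. The smallest p values belonged to a target without a matched symbol (NM_001080519), NECTIN1 (adjusted p of 0.22, edgeR) and WARS2. NECTIN1, an adhesion molecule, reached 22.1 CPM in siCtrl#2 of batch 3 and lay between 3.21 and 4.13 CPM in the 4 libraries of batches 1 and 2. SRSF5, a splicing factor, had 199 and 271 CPM in batch 2 and 94.3 to 127 CPM elsewhere. FDPS, an enzyme of isoprenoid synthesis, had 12.0 and 12.6 CPM in batch 3 and 23.7 to 39.7 CPM elsewhere. For NECTIN1, SRSF5 and FDPS the libraries of 1 batch did not overlap those of the other 2, but none passed the adjustment. Their choice by the smallest p favours such a pattern, which is therefore no separate evidence. PNPLA4, MAP4K2, ESPL1, CD46 and MACROD1 completed the 10 smallest p values. The count moved with the libraries in the fit. Each fit without 1 library left 1 batch with a single library and 1 residual degree of freedom, so that the lone library was assumed to vary like the others, and its difference and that of its batch cannot be told apart. Without siCtrl#2 of batch 1 the test called 327 genes, and without siCtrl#1 of batch 1, which left batch 1 to that library alone, 1761. Leaving out siCtrl#1 or siCtrl#2 of batch 2, or siCtrl#1 or siCtrl#2 of batch 3, gave 33, 30, 17 and 6. With all 18 libraries in the fit, 469 genes differed between batches.

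Of 10213 genes, 144 were higher in siCtrl#2 than in siCtrl#1 (1.41%) and 69 were lower (0.676%), at 1.5-fold and an adjusted p under 0.05 in edgeR's quasi-likelihood test over the 6 siRNA groups. With batch as a block, the counts were 207 and 120 and held all 213 genes. Without siCtrl#2 of batch 1 they were 244 and 196. With the 6 control libraries alone, 89 genes were called, and 72 with these libraries and the block. Leaving out other libraries gave 97 to 131, the lowest without siCtrl#2 of batch 3, followed by 103 without siCtrl#1 of batch 2, 108 without siCtrl#1 of batch 1 and 128 without siCtrl#2 of batch 2.

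The 3 genes with the smallest p did not overlap between the siRNAs. Their choice by this p favours such a pattern, which is therefore no separate evidence, and its share over all genes was not counted. LMLN, a metallopeptidase gene, had 16.1, 17.4 and 19.7 CPM with siCtrl#1 and 2.29, 3.48 and 3.62 CPM with siCtrl#2, in batch order. This was a log2 difference of -2.55 ± 0.23 (SE), with an adjusted p of 1.02e-06 in edgeR, and of -2.42 without siCtrl#2 of batch 1. PTPMT1, a mitochondrial phosphatase, had 13.1, 11.5 and 12.1 CPM with siCtrl#1 and 49.2, 57.8 and 42.9 CPM with siCtrl#2. Its log2 difference was 1.97 ± 0.20 (SE), with an adjusted p of 2.57e-06 in edgeR, and 1.93 without siCtrl#2 of batch 1. YBX3, an RNA-binding protein, had 359, 323 and 349 CPM with siCtrl#1 and 148, 116 and 114 CPM with siCtrl#2, which gave -1.49 ± 0.16 (SE) at an adjusted p of 1.10e-05 in edgeR, and -1.68 without that library. In the depleted libraries LMLN lay between 10.6 and 21.7 CPM, PTPMT1 between 32.0 and 61.1 CPM and YBX3 between 189 and 403 CPM, so that LMLN and YBX3 were nearer to siCtrl#1 and PTPMT1 nearer to siCtrl#2.

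Some genes described above differed between the control siRNAs, so that their baseline depends on which siRNA is taken. MET, the receptor of hepatocyte growth factor, was at 25.7, 31.0 and 38.4 CPM with siCtrl#1 and at 71.9, 102 and 90.9 CPM with siCtrl#2 (log2 difference 1.41, adjusted p of 6.60e-05, edgeR). CDKN1A had 475, 500 and 433 CPM with siCtrl#1 and 889, 717 and 730 CPM with siCtrl#2 (log2 difference 0.69, adjusted p of 0.030, edgeR). EPCAM, CD274, NRAS and CCND3 were also called higher with siCtrl#2, and RPLP0, FTL, FDXR, DDB2 and VDR lower. Of the list genes tested, siCtrl#2 differed for 1 of 10 epithelial genes, 3 of 26 genes of the p53 pathway, 2 of 40 of the cell cycle and 1 of 71 ribosomal proteins, beside the shares of all genes given above.

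In 19 of 6287 genes with a median of at least 20 CPM, 1 control library lay at least 2 log2 units below all 5 others, a limit chosen after the values were seen. In no gene did 1 library lie as far above the others. Of the 19 genes, 11 were low in siCtrl#2 of batch 3, 4 in siCtrl#2 of batch 1, 2 in siCtrl#1 of batch 1, and 1 each in siCtrl#1 and siCtrl#2 of batch 2. ITM2C, a membrane protein, had 1.33 CPM (7 reads) in siCtrl#2 of batch 3 and 184 to 270 CPM in the other 5. GPI, the glycolytic isomerase, had 50.1 CPM (263 reads) there and 1084 to 1242 CPM in the others, and ZNF836 had 0.190 CPM (1 read) and 36.2 to 59.2 CPM. SLC4A7, a bicarbonate transporter, had 1.60 CPM in siCtrl#2 of batch 1 and 54.0 to 81.7 CPM in the others. For these genes 1 low library pulled down the mean of its group of 3. GPI in the glycolysis list and RPS26 in the ribosomal list were among them.

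**Figure D5:**
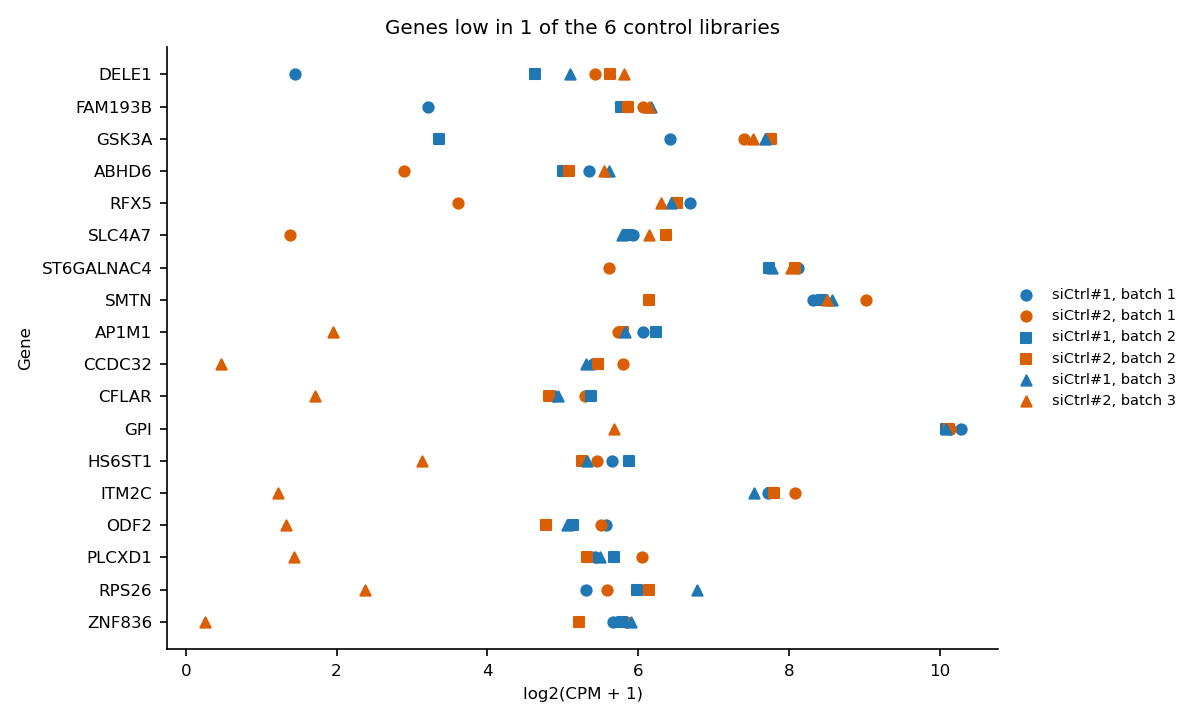
Genes in which 1 control library lay at least 2 log2 units below the other 5, as log2(CPM + 1), with 1 symbol per library (colour, siRNA; shape, batch). The plot leaves out 1 of the 19 genes, and siCtrl#2 of batch 3 was the low symbol in 10 of the 18 shown.

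Against the 12 depleted libraries, 484 of 10213 genes were higher in the control libraries (4.74%) and 759 were lower (7.43%), at 1.5-fold and an adjusted p under 0.05 in edgeR's quasi-likelihood test. The baseline levels of these genes differed by list. Of 26 tested NF-kappaB and inflammatory genes, 19 were lower in the controls. Of the 19, 8 had a control median under 1 CPM, beside 65 of the 759 over all genes. CXCL8 was among the 8, with 0.845 CPM against 39.4 to 225 CPM in the depleted libraries. Tested genes needed more than 100 counts over all 18 libraries. A gene near 0 in the controls passed mostly through reads in depleted libraries, so that its direction largely followed from this filter. Genes of the list near 0 throughout were not tested. Of 25 tested genes of cholesterol synthesis, 16 were lower, none of them with a control median under 1 CPM. Of 40 tested cell cycle genes, 23 were higher in the controls and 1 was lower. None of 43 respiratory chain genes was called in either direction, and of 71 ribosomal protein genes 5 were lower. With siCtrl#1 or siCtrl#2 alone as the reference, 1542 and 1072 genes were called in both directions together. Of the 10009 genes detected in the controls, 9754 also reached 1 CPM in each of the 12 depleted libraries.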

How the data were processed

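Whole-number counts of reads per transcript target were deposited by the authors, 1 list per library, without normalization. Per the study's methods, libraries of the Ion AmpliSeq Transcriptome panel were sequenced on an Ion Proton, aligned with TMAP 5.0.4 against an hg19 panel reference and counted with HTSeq 0.6.0; the strand setting is not given in the sources used here. Rows that name no gene stayed out of all totals. In the control libraries, 45.7% to 46.2% of all reads were counted on genes and 48.5% to 49.1% on no feature. What this means for genes at 0 was not tested.

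Of 20802 genes, 20228 were matched to a symbol. Genes with more than 100 counts over 18 libraries were kept (10632), and the tests skipped 419 noncoding targets, which left 10213. Levels are CPM of gene reads. Tests used edgeR 4.0.16 (TMM, quasi-likelihood, Benjamini-Hochberg) in R 4.3.3, with DESeq2 1.42.0 as an alternative. The edgeR tests were also run on simulated data, the DESeq2 ones were not. Batches were compared in the 6 control libraries with siRNA and batch as terms, and siRNAs in the 6-group model of 18 libraries, called at 1.5-fold and an adjusted p under 0.05. Other alternatives were RLE size factors, other count filters, a replicate block and leaving out each control library.

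The labels give the replicate number as the batch, so that it pairs the samples; deviations of same-batch control libraries correlated at -0.07, 0.08 and 0.27. The study describes the 3 replicates as biological, from independent experiments, and p-values measure the spread between them.

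The members, the 42 lists of genes and the tests were chosen with earlier results of these data known. Of the listed names, 27 were not analysed here. Genes named are the 25 highest, the highest, lowest and defining members of each list, those with the smallest p between batches (10) and between control siRNAs (3), the 5 steadiest at 100 CPM or more, TSG101 and VPS28; other genes were chosen after their values were seen. Some genes that this rule names are not reported here. Positions and shared sequence are from GENCODE on GRCh37, promoter windows from RefSeq on GRCh38.p14.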

Additional observations from a re-analysis of the deposited data

Results flagged for a closer look

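Of 47 quantities tested over the 6 control libraries (summed levels of lists and properties of libraries), 1 had a library far from the others. The summed level of the 40 Wnt signalling genes was 3748 CPM in siCtrl#1 of batch 3, and the nearest other library had 3207 CPM, a gap of 0.741 of the whole range. Chance sets about 1 in 20 such groups apart. MYC was at 1403 CPM in that library and at 679 to 936 CPM in the other 5, and the part of other genes in the sum was not tested.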

How the results depend on the processing

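Without a filter on low counts, 4 genes differed between batches, and with all 18 libraries 469 did. Leaving out 1 control library, with 1 residual degree of freedom, gave 6 to 1761. The other alternatives gave 0. Between siCtrl#2 and siCtrl#1, 359 genes were called without the filter, 327 with the replicate block, 89 with the 6 control libraries alone and 72 with these and the replicate block, the last chosen after seeing the data. Leaving out 1 library gave 97 to 440. For the contrast with the depleted libraries, every alternative stayed within 1.5 times of 1243 (946 to 1542), the replicate block at 1293. Detected and silent genes stayed within 1.5 times under all alternatives (9347 to 11042 and 5385 to 8773). Without noncoding genes the 10 highest took 10.4% of reads. Of 294 list medians under TMM scaling or without 1 library, 288 moved by less than 1 SD. The 6 others were of the respiratory chain, ESCRT and interferon lists. Many of the 288 were of lists with a median of 0 CPM, such as the goblet cell and keratin lists. These stayed at 0 under each setting and say little about stability. Of 178 values of single genes under alternatives, 50 passed the threshold where the reported one had not, 0 lost it and 0 reversed. The batch values among them were the highest minus the lowest batch level, which cannot reverse. No batch value had passed in the reported fit, so that none could lose the threshold. Only the values between the control siRNAs could have done either. Counts under about 3 reads per library limit what can be said of genes near 1 CPM. The block changed no other call count by over 1.5 times.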

Other observations

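LINC00856 was the only gene of the 6956 without a read in the control libraries that reached 1 CPM in all 12 depleted libraries, where it had 2.06 to 7.23 CPM. Over all 18 libraries, 59 genes with a median of at least 20 CPM had 1 library at least 2 log2 units below the other 17, and 37 of these were low in siVps28#2 of batch 3, 7 in siCtrl#2 of batch 3 and 5 in siTsg101#1 of batch 3. KRT15, a basal keratin, was 1 of 3 keratins tested and differed between the control siRNAs, with 0.435, 1.41 and 0.315 CPM (2, 5 and 2 reads) for siCtrl#1 and 5.95, 2.23 and 7.62 CPM (26, 9 and 40 reads) for siCtrl#2 (log2 difference 3.00, adjusted p of 0.0055, edgeR).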
